A study of Mus musculus with 3 samples.

Results

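The genes described here are the SUMO conjugation machinery, given by symbol as Sumo2, Sumo3, Sae1, Uba2, Pias1, Pias4, Senp1 and Senp2, chosen as a list of 8 gene symbols. Of the 8, 7 are among the 19505 genes with a named probe set on the array, with 1 probe set each, and Uba2 was not measured. The study grew mouse CD8 T cells under CD3 and CD28 stimulation in Tc1 conditions, a cytokine mix that favours cytotoxic effector cells, and asked what added cholesterol does to their transcripts. Control cells got no cholesterol, and the treated cells got 0.5 µg/ml or 0.75 µg/ml. All 3 conditions share the stimulation and the cytokines, and the labels give neither the strain, age and number of the animals nor the carrier of the cholesterol and the length of treatment. Total RNA was hybridised to whole-transcript arrays, 1 array per condition, so no difference below has a replicate check or a p-value, and precision is limited by the number of arrays.

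SUMO proteins are small ubiquitin-like modifiers that are joined to lysines of other proteins, mostly in the nucleus. The E1 enzyme, a pair formed by the products of Sae1 and Uba2, activates SUMO and passes it on, and E3 ligases such as the PIAS proteins help its transfer to substrates. SENP proteases trim SUMO precursors and take SUMO off again. The system bears on cholesterol because LXRs, the nuclear receptors for oxysterols, are SUMO substrates in macrophages, where the modified receptors hold corepressors at inflammatory genes. The arrays measure transcripts, and the amount of SUMO joined to proteins was not measured.

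The 3 arrays had median intensities of 32.5 (control), 32.4 (0.5 µg/ml) and 33.0 (0.75 µg/ml). The CD8 T cell markers Cd8a, Cd8b1, Cd3e and Cd3g were bright on all 3, at 2030 or higher. Cd8a was at 4225 in the control and 3313 at 0.75 µg/ml, and Cd8b1 at 2574 and 2030. Cd3e was at 4364 and 4594 on these arrays, and Cd3g at 2863 and 2692. Of 13 markers of CD4 T cells, B cells, macrophages and monocytes, NK cells and neutrophils, 10 were measured and none exceeded the background level on any array. Their summed intensities, made up of values under background only, were 193, 178 and 169 in rising order of dose. Cd4 was at 61.6, 39.4 and 35.7 in the same order. The defining markers Cd4, Cd79a and Csf1r were at or under 61.6. The background level was the highest 95th percentile of the negative-control probe sets, an intensity of 102. All 7 measured SUMO genes were above it on every array, the lowest value being 125 for Pias1 at 0.75 µg/ml, and all 7 passed a level filter, a mean log2 intensity of at least 5.02, the median over all probe sets, that 10940 genes passed.

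The measured SUMO genes stayed close to their control values at both doses. The largest difference at 0.5 µg/ml was that of Pias4, 1.24-fold lower than in the control. The largest at 0.75 µg/ml was that of Sumo2, 1.22-fold higher. No SUMO gene differed 1.5-fold between any pair of arrays. Of all genes past the filter, which include genes under background, 1.94% did at 0.5 µg/ml, 7.08% at 0.75 µg/ml and 5.52% between the doses. The plot of intensities by dose shows these values gene by gene.

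**Figure D1:**
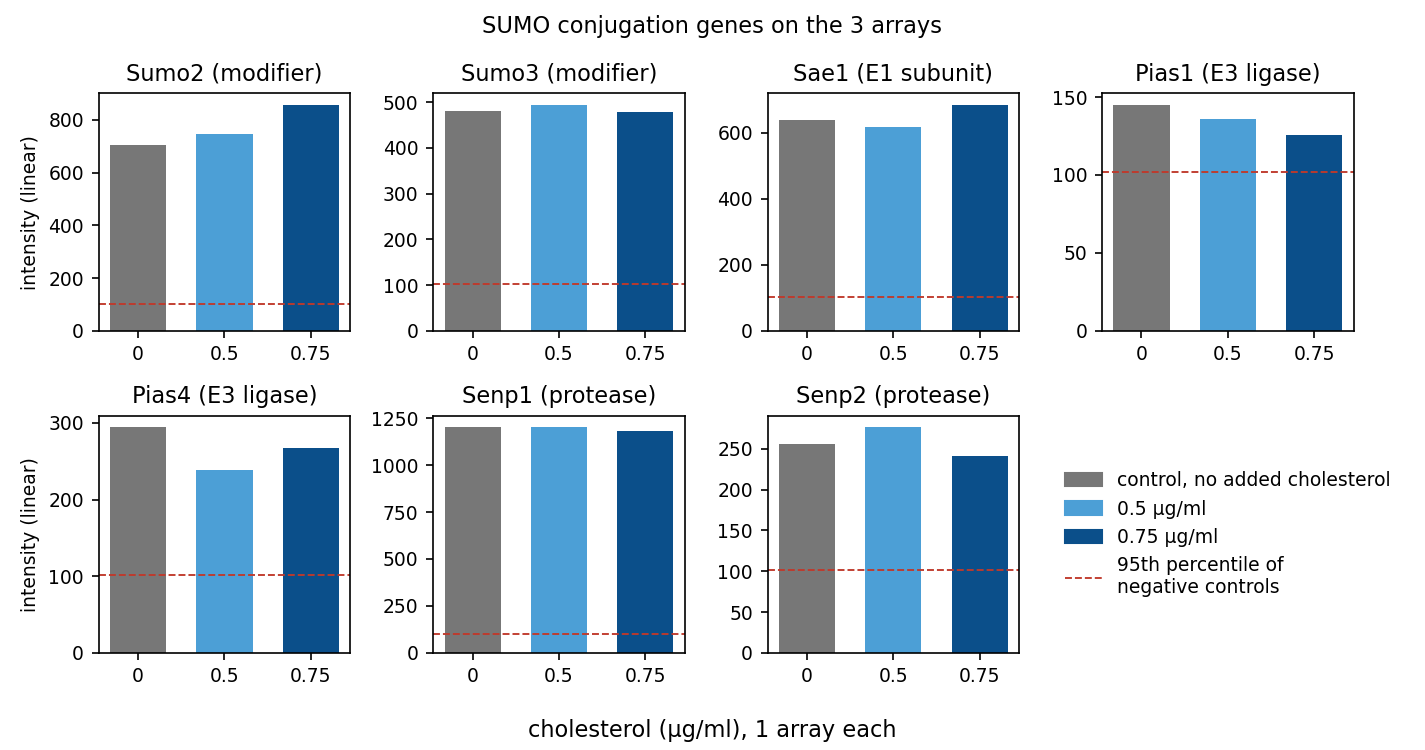
Linear intensity (vertical axis) of the 7 measured SUMO genes by cholesterol dose, from none to 0.75 µg/ml (horizontal axis), 1 bar per array with no error bar since each condition had 1 array. The dashed line is the background level of 102, which every bar exceeds, and the axes start at 0 and differ between genes, whose levels are not comparable across probe sets.

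Sumo2 encodes one of the main modifiers and the one that forms chains together with its close relative Sumo3. Its intensity was 705 in the control, 747 with 0.5 µg/ml and 857 with 0.75 µg/ml. It was the only one of the 7 with its arrays in rising order of dose, an order that 21.3% of all genes past the level filter shared. Its log2 difference against control cells was 0.08 for the lower and 0.28 for the higher dose, and 3108 of the 10940 genes differed at least as much as Sumo2 at the higher dose.

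Sumo3 encodes a modifier almost identical to that of Sumo2 in its mature form. Its intensities were 480, 495 and 479 in the control and at rising dose, all within 1.03-fold of each other. At 0.75 µg/ml the log2 difference of Sumo2 exceeded that of Sumo3 by 0.29, and at 0.5 µg/ml by 0.04. The gap at the higher dose came from Sumo2, since Sumo3 differed from the control by -0.003 there. Whether the probe sets pick up signal from each other or from near-identical copies elsewhere in the genome was not tested.

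The 250 bases upstream of the RefSeq start of Sumo2 and of Sumo3 (GRCm38.p6) are shown because these relatives encode almost the same protein but differed at 0.75 µg/ml. The Sumo2 stretch is chr11:115536231-115536480 on the minus strand and the Sumo3 stretch, upstream of the first of 3 listed starts, is chr10:77605847-77606096 on the plus strand. Capitals mark matches to the motifs described after the sequences.
Sumo2: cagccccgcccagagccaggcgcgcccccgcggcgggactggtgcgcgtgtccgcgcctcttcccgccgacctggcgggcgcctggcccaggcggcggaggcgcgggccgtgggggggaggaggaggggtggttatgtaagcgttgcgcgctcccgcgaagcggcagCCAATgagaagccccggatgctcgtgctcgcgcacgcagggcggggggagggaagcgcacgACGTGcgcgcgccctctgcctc
Sumo3: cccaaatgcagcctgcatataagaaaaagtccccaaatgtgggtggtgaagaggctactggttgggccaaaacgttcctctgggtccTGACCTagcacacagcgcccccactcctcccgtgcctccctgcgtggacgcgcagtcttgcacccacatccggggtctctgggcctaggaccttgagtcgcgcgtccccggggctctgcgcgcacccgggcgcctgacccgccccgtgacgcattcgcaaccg
Both strands were searched for a sterol regulatory element (TCACNCCAC), the nuclear receptor site that LXR elements repeat (AGGTCA), an interferon-stimulated response element core (GAAANNGAA), the hypoxia response element core (ACGTG, which also lies within the E-box CACGTG), an ETS site (CCGGAAG), an NRF1 site (GCGCANGCG) and a CCAAT box (CCAAT). The motifs were chosen with the values known. Sumo2 holds 1 CCAAT box and 1 ACGTG, which 34.5% and 16.6% of 27025 upstream stretches hold, 1 per gene and of the same length. Sumo3 holds 1 nuclear receptor site on the other strand, which 13.8% of all stretches hold on either strand. The stretch upstream of the first of 2 listed starts of Senp1, not shown, also holds 1 match to this site. The sterol motif, which 1.04% of stretches hold, and the interferon motif, which 7.16% hold, have no match in the stretches searched. These were 1 per gene for the 6 SUMO genes with a listed start. Further starts of Sumo3 and Senp1 were not searched. The ETS site, present in 7.05% of stretches, has no match in Sumo2 or Sumo3. No match says only that these letters are not in these windows. The base composition was 77.2% G and C for Sumo2 and 64.8% for Sumo3, against a median of 52% over all stretches.

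Sae1, which encodes the smaller subunit of the E1 enzyme, was at 639 in the control, 617 with 0.5 µg/ml and 685 with 0.75 µg/ml. The lowest and the highest array differed 1.11-fold, the value at 0.5 µg/ml lay under and the value at 0.75 µg/ml above that of the control, with log2 differences of -0.05 and 0.10. Its partner Uba2 was not measured, so the arrays cover only the Sae1 side of the E1 enzyme.

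The PIAS ligases were both lower than in the control at both doses. Pias1, whose product joins SUMO to transcription factors, was at 145 in the control, 136 with 0.5 µg/ml and 125 with 0.75 µg/ml, in falling order of dose. Its log2 difference from the control was -0.09 at the lower dose and -0.21, or 1.16-fold, at the higher dose. Of the 7 SUMO genes 2, Pias1 and Senp1, had their 3 arrays in falling order of dose, as had 19.8% of all genes past the filter.

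The 250 bases upstream of the start of Pias1 are chr9:62980880-62981129 on the minus strand (RefSeq, GRCm38.p6). They are shown because Pias1, unlike Pias4, had its arrays in the order of dose. No stretch was listed for Pias4.
Pias1: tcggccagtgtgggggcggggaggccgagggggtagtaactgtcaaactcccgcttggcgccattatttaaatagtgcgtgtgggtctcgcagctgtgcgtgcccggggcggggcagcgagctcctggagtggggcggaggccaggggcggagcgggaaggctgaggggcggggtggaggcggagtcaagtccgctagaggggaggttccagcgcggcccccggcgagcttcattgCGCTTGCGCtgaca
The capitals mark 1 NRF1 site, read on the other strand, which 5.33% of all upstream stretches hold. The other 6 motifs have no match there, and 68.8% of the bases are G or C, against a median of 52% over all stretches. None of the motif shares given was matched for base composition.

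Pias4, which encodes PIASy, was at 295 in the control, 238 with 0.5 µg/ml and 268 with 0.75 µg/ml. The lowest array was that of the lower dose, so the values did not follow the dose. Pias4 differed from the control by -0.31 at the lower and -0.14 at the higher dose on the log2 scale, and 1326 of 10940 genes differed from the control at least as much as Pias4 at the lower dose. Pias4 had the widest range over the 3 arrays among the SUMO genes, 1.24-fold, and 3774 genes had a range at least as wide. The genes closest to its pattern by Euclidean distance of centred log2 values over the 3 arrays were Litaf (0.0042), the histone demethylase gene Kdm5c (0.0072) and the cytokine gene Tnfsf13b (0.0084, dim at 43.0, 35.0 and 39.0), and 325 of the 10939 other genes lay within 0.1.

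Of the SENP proteases, Senp1 varied little, while the range of Senp2 was close to that of Pias1. Senp1, which acts both in maturing SUMO precursors and in removing SUMO, was at 1203 in the control, 1202 with 0.5 µg/ml and 1183 with 0.75 µg/ml. All 3 arrays lay within 1.02-fold, the narrowest range of the 7 genes, and 10668 of 10940 genes varied at least as much. Senp2, a related protease that removes SUMO from nuclear substrates, was at 256 in the control, 277 with 0.5 µg/ml and 241 with 0.75 µg/ml. It was above the control at the lower dose (log2 difference 0.11) and below it at the higher dose (-0.09), and its widest gap, 1.15-fold, lay between the doses.

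As a group the SUMO genes had a median log2 difference from the control of -0.001 at 0.5 µg/ml, against 0.01 over all genes past the filter. Of the 7 genes 3 were higher and 4 lower, and Pias4, the only one past 1.2-fold, was lower. The count of 1 among 7, or 14.3%, stands beside 16.7% of all genes that differed at least 1.2-fold at this dose. That share of all genes was 7.55% with values under the background level of 102 raised to it, a step that leaves the SUMO genes as they are. The median absolute log2 difference was 0.08 over the SUMO genes and 0.11 over all genes. The all-gene median, like the ranks given for Sumo2 and Pias4, includes genes dimmer than the background level, which no SUMO gene was.

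At 0.75 µg/ml the median log2 difference of the SUMO genes was -0.02, against 0.002 over all genes. Only Sumo2 and Sae1 were higher than in the control, 5 genes were lower, and Sumo2 alone passed 1.2-fold. The share of all genes past 1.2-fold was 31.1% at this dose, or 19.5% with dim values raised, both above 1 of 7. The median absolute log2 difference was 0.10 over the SUMO genes and 0.16 over all genes, dim ones included. Of all genes 1.93% differed at least 2-fold at the higher dose and 0.146% at the lower dose, and no SUMO gene did at either.

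Between the doses the median log2 difference of 0.75 minus 0.5 µg/ml was -0.02 for the SUMO genes and -0.006 for all genes. Sumo2 (0.20), Pias4 (0.17) and Sae1 (0.15) were higher at 0.75 µg/ml, while Senp2 (-0.20), Pias1 (-0.11), Sumo3 (-0.05) and Senp1 (-0.02) were lower. None of the 7 genes passed 1.2-fold, which 26.1% of all genes did, or 15.6% with dim values raised, and 1.59% of all genes differed 2-fold. Both doses were set against the same control array, so Pias1 and Pias4 being lower at both is not a repeated observation.

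**Figure D2:**
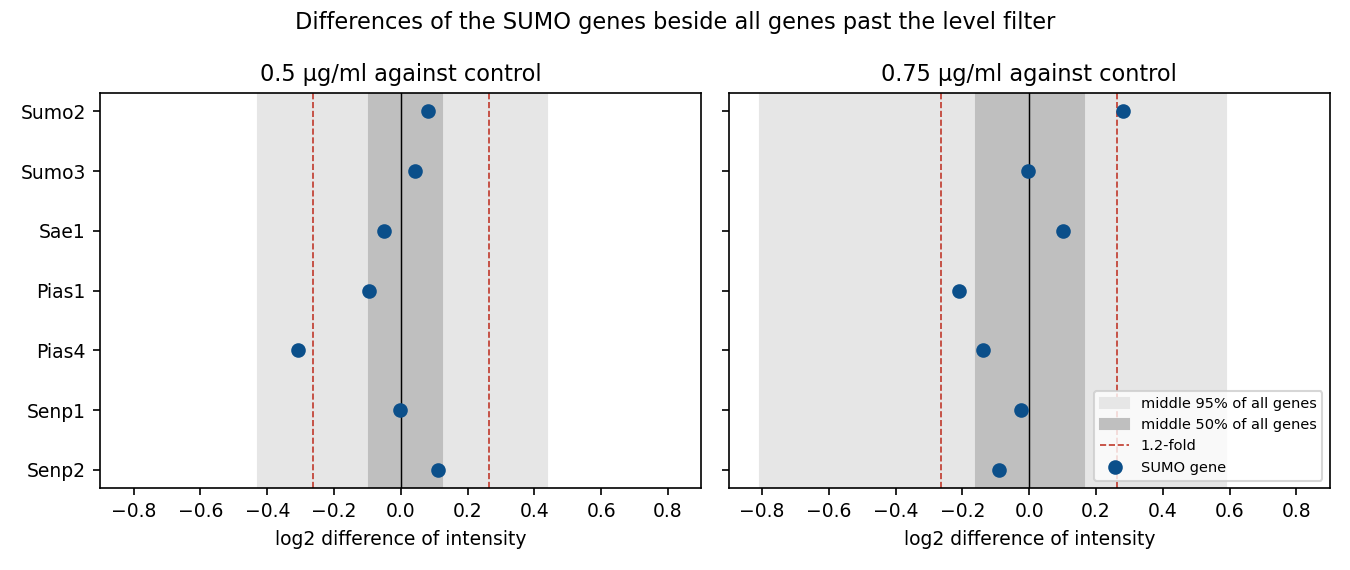
Log2 difference of intensity from the control (horizontal axis) of the 7 measured SUMO genes (rows) at 0.5 µg/ml (left) and 0.75 µg/ml (right), 1 array against 1. Grey bands hold the middle 50% and 95% of the 10940 genes past the level filter and dashed lines mark 1.2-fold. Pias4 lies past 1.2-fold at the lower dose and Sumo2 at the higher dose, and all points lie within the middle 95% of genes.

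The rest of the pathway also showed small differences. A further 18 SUMO pathway genes were measured. At 0.5 µg/ml 10 were higher, 7 lower and 1 equal, and none passed 1.2-fold, against 16.7% of all genes, or 7.55% with dim values raised. At 0.75 µg/ml 8 were higher, 9 lower and 1 equal, with a median log2 difference of -0.003. At that dose 1 passed 1.2-fold, against 31.1% of all genes, or 19.5% with dim values raised. The ligase gene Pias3 was at 104 in the control, 124 with 0.5 µg/ml and 119 with 0.75 µg/ml, and Pias2 at 857, 826 and 812. Zmiz2, a PIAS-like protein gene, was at 679, 625 and 628, and the SUMO ligase gene Zfp451 at 581, 606 and 547, while the remaining 5 measured ligases and cofactors differed from the control by -0.04 to 0.05 on the log2 scale at the higher dose.

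Among the other SUMO proteases, Senp7, which prefers SUMO2 and SUMO3 chains, was the gene past 1.2-fold against the control. It was at 540 in the control, 564 with 0.5 µg/ml and 431 with 0.75 µg/ml, 1.25-fold under the control at the higher dose. The protease gene Desi2 was at 200.1, 229 and 174, 1.15-fold lower than in the control at the higher dose. Between the doses 6 of these 7 proteases were lower at 0.75 than at 0.5 µg/ml, while 46.2% of all genes past the filter were higher. The 6 include Desi1 (-0.003 on the log2 scale) and Senp3 (-0.007, named here for its small difference). Desi2 (1.32-fold) and Senp7 (1.31-fold) passed 1.2-fold, which 26.1% of all genes did, or 15.6% with dim values raised. Uspl1, a SUMO protease of Cajal bodies, was at 681, 678 and 804, 1.18-fold higher at 0.75 µg/ml, and Desi1 was 1.10-fold lower. Rnf4, a ubiquitin ligase that recognises SUMO chains, had the same deposited value, 839, on all 3 arrays, as had 116 of 22206 transcript probe sets, and Rnf111 was at 128, 126 and 127.

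SUMO substrates and nuclear body proteins were mostly lower than in the control at both doses, but past 1.2-fold only at 0.75 µg/ml. At 0.75 µg/ml 4 of 5 listed genes were lower and 3 of them passed 1.2-fold, with a median log2 difference of -0.28. Of all genes, 16.5% were at least 1.2-fold lower at this dose. Daxx, a histone chaperone that binds SUMO, was at 211 at 0.75 µg/ml against 307 in the control, 1.46-fold lower. Sp100 was at 1894 against 2355, and Pml, the scaffold of PML bodies, at 650.0 against 791. Trim28, a corepressor that SUMO activates, was at 349 against 390. PML and Sp100 are interferon-inducible genes in textbook accounts. At 0.5 µg/ml 4 of the 5 were lower too, none of the 5 passed 1.2-fold, and their median was -0.07 on the log2 scale. Sp100 (-0.02) and Pml (-0.07) differed less there than the all-gene median absolute difference of 0.11. Daxx was the gene that was higher at this dose, at 331 against 307. Trim28 was at 332 with 0.5 µg/ml, under its value at 0.75 µg/ml. Rangap1, named here as the gene not lower at 0.75 µg/ml, was at 737 in the control, 674 with 0.5 µg/ml and 749 with 0.75 µg/ml.

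Of the LXR genes and their corepressor partners, 3 of 6 were measured and Nr1h2, which encodes LXR beta, was not. Nr1h3, which encodes LXR alpha, was at 32.9 in the control, 45.6 with 0.5 µg/ml and 37.5 with 0.75 µg/ml, under the background level on all 3 arrays. Hdac4, reported as a SUMO ligase for LXR in macrophages, was at 227, 168 and 185, 1.35-fold lower than in the control at the lower dose and 1.23-fold lower at the higher dose. Gps2, a corepressor subunit that docks SUMO-modified LXR in liver cells, was at 159, 187 and 176.

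Other ubiquitin-like systems on the same arrays gave a scale for these values. The 7 measured genes of NEDD8 conjugation had a median log2 difference of 0.06 at 0.75 µg/ml. Of them 1 passed 1.2-fold, the E2 gene Ube2f at 327 against 253, while 31.1% of all genes did, or 19.5% with dim values raised. The modifier gene Nedd8 was at 461 against 402, Dcun1d1, a ligase component, at 343 against 304, and Cand1, a cullin exchange factor, at 701 against 777. The 5 ISG15 conjugation genes, an interferon-driven system, had a median of -1.36 at 0.75 µg/ml. Of them 4 were at least 1.5-fold lower, as were 4.55% of all genes. With values under the background level raised to it, the ISG15 median was -0.44 and 2 genes were at least 1.5-fold lower, as were 2.66% of all genes. Usp18, the ISG15 protease, was at 113 against 421, Herc6, its ligase in mice, at 264 against 459, and the E2 gene Ube2l6 at 53.7 against 138, at least 1.36-fold lower with the dim value raised to the background level. Isg15 itself was dimmer than the background level on both arrays, at 14.1 and 56.3. Uba7, the ISG15 E1 gene, named here after its value was seen, was at 231 against 238. At 0.5 µg/ml the median of the ISG15 list was -0.001, and none of the 5 genes passed 1.2-fold, which 16.7% of all genes did. Usp18 was at 428 at that dose. With 1 array per condition the difference between the SUMO and ISG15 lists was not tested.

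**Figure D3:**
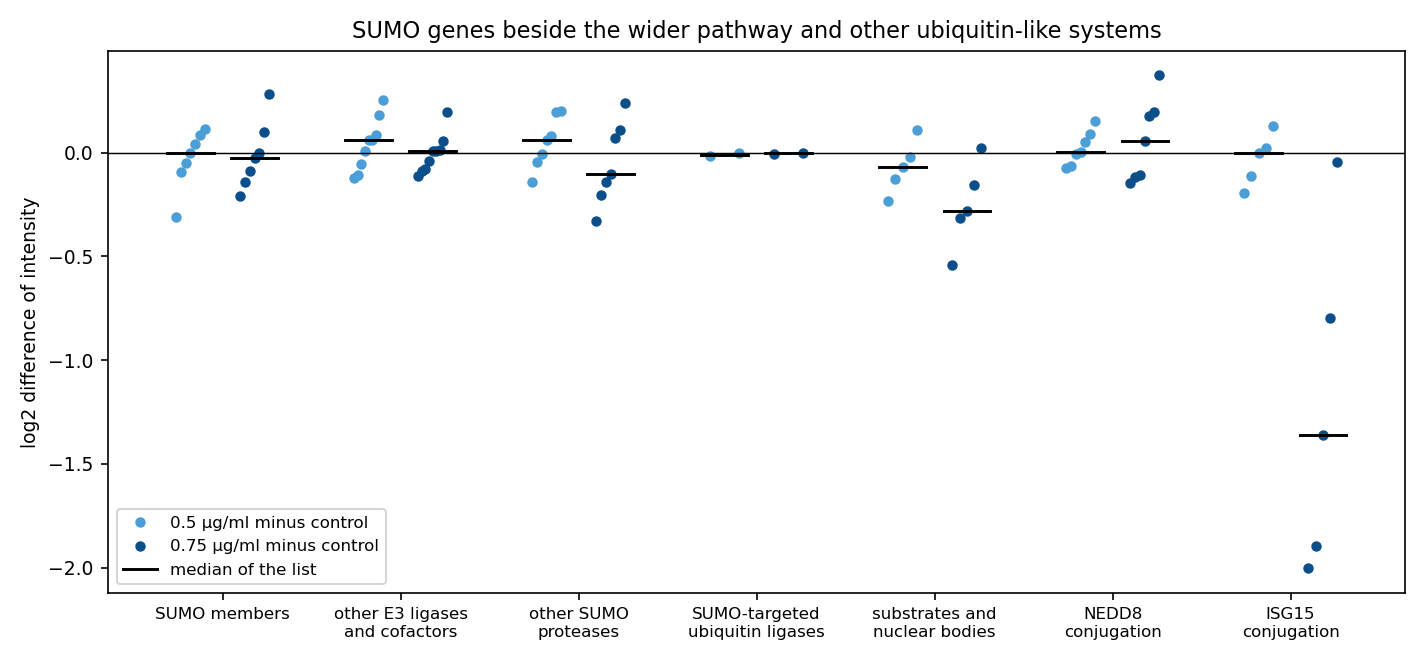
Log2 difference of intensity from the control (vertical axis) at 0.5 µg/ml (light points) and 0.75 µg/ml (dark points) for each measured gene of 7 lists, with short lines for the list medians. The SUMO genes and the other ligases, cofactors, proteases and SUMO-targeted ubiquitin ligases lie between -0.33 and 0.28, while the ISG15 list has a median of -1.36 at 0.75 µg/ml, or -0.44 with dim values raised to the background level (not drawn).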

How the data were processed

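The deposited table holds 1 linear intensity per probe set and array, per the values themselves, for 28846 probe sets. Per the labels' protocols, RNA was prepared with Trizol and biotin-labelled by a sense whole-transcript method, and the software, background correction and normalization behind the values are not stated there. The platform annotation names a single gene for 19572 of 22206 transcript probe sets, several for 0 and none for 2634, and all 19572 gene identifiers matched a RefSeq table of the assembly GRCm38.p6. The brightest probe set per gene was used, intensities were taken to log2 with no pseudocount, and genes with a mean log2 value of at least 5.02, the median over all probe sets, counted as background for the SUMO genes. For each comparison the log2 value of one array was subtracted from that of the other, and genes were counted at 1.2-fold, with no test. Genes outside the SUMO list were named if among the 4 with the largest difference of their list at 0.75 µg/ml, or fixed (Hdac4, Nr1h2 and Nr1h3 among them), with exceptions marked, and some listed genes are not reported here. The pattern rule left out predicted genes. The members and lists were chosen with earlier results of these data known. The steps were tested on simulated data with planted changes and little added noise, a check of the code and not of how reliable the fold counts are. Python 3.11.15, numpy 2.4.6, pandas 2.3.3 and matplotlib 3.10.9 were used. Alternatives were quantile normalization, median centring, raising dim values to the background level, the mean over probe sets, no level filter, a pseudocount of 16, and thresholds of 1.5-fold and 2-fold.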

Additional observations from a re-analysis of the deposited data

How the results depend on the processing

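Each of the 21 single differences of SUMO genes kept its sign under all 6 alternatives of normalization, dim values, probe sets, filter and pseudocount. The largest move was 0.05 on the log2 scale, under quantile normalization. Only quantile normalization and median centring could have changed a sign. The steps for dim values, probe sets and filter leave these genes as they are, and a pseudocount keeps the order of 2 arrays. The count of SUMO genes past 1.2-fold was the same under all 6 alternatives, and became 0 at both doses with a threshold of 1.5-fold or 2-fold. The count of all genes past 1.2-fold, 1827, 3406 and 2856 at 0.5 µg/ml against the control, at 0.75 µg/ml against the control and between the doses, depended on the dim genes. With dim values raised to the background level it was 826, 2129 and 1711, and without the level filter 4853, 6398 and 5650. At 1.5-fold it was 212, 775 and 604, and at 2-fold 16, 211 and 174. All 7 SUMO genes had 1 probe set, so the choice of probe set could not alter them. No paired analysis was possible because each condition had 1 array, and for the same reason no replicate could be left out. A difference of the size seen for Sumo2 or Pias4 cannot be told apart from variation between cultures or arrays.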
